A study of Drosophila melanogaster with 6 samples.

Results

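Night heads were compared with day heads of Drosophila melanogaster on Affymetrix Drosophila 2.0 arrays: the 3 arrays of ZT15, zeitgeber time 15, against the 3 arrays of ZT3, paired within treatment. ZT counts hours from lights on, so ZT3 lies in the morning light and ZT15 in the dark of a usual light-dark day; the length of the light phase is not given in the labels. These 6 arrays are all 6 of the series, and 10893 of the 10956 probe sets on the value table were compared after 63 control probe sets were left out. Each array carried RNA pooled from 30 heads, with 1 pool for each treatment and time. The treatments were control flies, given as cyo in the design text, flies labelled as over-expressing cbt, and flies labelled cbt RNAi. All flies had been entrained in light-dark cycles for some days. The driver and insertion of the cbt transgenes, and the sex and age of the flies, are not given in the sources used here. The product of cbt (cabut) is a transcription factor with zinc fingers, and its signal went against the labels: by day and by night it was 10.21 and 10.73 in control heads, lower in over-expression-labelled heads (8.98 and 9.90) and higher in RNAi-labelled heads (10.99 and 11.05). The treatments are therefore named by their labels.

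The fly clock is a feedback loop. CLOCK and CYCLE proteins switch on period and timeless in the evening, and the PERIOD and TIMELESS proteins accumulate through the night and shut CLOCK and CYCLE off. A second loop runs through vrille, whose protein represses Clock, and Pdp1, whose product activates it, and cryptochrome (cry) encodes the blue-light receptor that resets the loop through TIMELESS. In heads these transcripts come from the clock neurons and also from photoreceptors and glia, and the eye makes up a large share of the tissue. Because whole heads were pooled, fewer cells of a type and less RNA per cell cannot be told apart in any value below.

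Values are log2 signals as deposited, so a difference of 1 is a 2-fold change. A difference is given as ZT15 minus ZT3, the mean of the 3 within-treatment pairs, with the standard error (SE) of a limma fit with treatment and time as terms. P-values are adjusted over all 10893 probe sets (Benjamini-Hochberg), and a gene is said to have risen or fallen at night where the adjusted p was under 0.05. A gene is read from its probe set of highest mean signal. With 1 array for each treatment and time, no pair has an error of its own, and whether the night difference depended on treatment could not be tested. An exact sign-flip test on 3 pairs cannot go below a two-sided p of 0.25, so single genes were tested through the shared model. Nothing says that arrays of 1 time came from separate cultures beyond their treatment, so the p-values measure the spread of the night difference among 3 treatments. Light and time of day changed together, and their parts cannot be told apart.

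The 6 arrays had medians between 7.35 and 7.42. The over-expression-labelled ZT3 array stood apart: 67 probe sets were 4-fold or more above every other array on it, against 0 to 2 on the other arrays. It carried the highest signal of all 16 measured digestive tract markers, of 9 of 13 ovary and germline genes and of 13 of 14 cell cycle genes. The same held for 11 of 12 antimicrobial and recognition genes. The control ZT15 array stood apart in 23 probe sets of Dap, Lys, Phe and Thr, bacterial transcripts used as spike-ins. Their median of ZT15 minus ZT3 was 2.81 in the control pair, 0.64 in the over-expression-labelled pair and 0.18 in the RNAi-labelled pair. For 13 control probe sets of Bio and Cre the medians were 0.63, 0.12 and 0.08 in the same order. All 13 were higher at ZT15 in the control pair, by 0.31 to 0.83. On the 5' and 3' probe sets of 18S rRNA the control ZT15 array was also the highest of the 6, at 10.234 and 11.949. The RNAi-labelled ZT15 array came next, at 9.785 and 11.662, and the control ZT3 array had 7.890 and 11.129. The middle 18S rRNA probe set did not set the control ZT15 array apart. Its signals, day first, were 8.94 and 10.59 in control, 7.36 and 8.79 in over-expression-labelled and 10.68 and 10.77 in RNAi-labelled heads. The part of these control probe sets in the results was not tested, and no call held without the control pair. Correlations between arrays across probe sets ran from 0.934 to 0.990. The lowest was the over-expression-labelled ZT3 array with the RNAi-labelled ZT15 array, and the highest was within the RNAi-labelled pair. Neuronal markers were present on all arrays, with mean log2 signals of the 13 measured genes between 9.33 and 10.06, and the photoreceptor gene chp lay between 12.11 and 12.76. Results that rest on the over-expression-labelled pair are given without it as well.

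Between day and night 59 probe sets passed the test, which is 0.542% of those tested; 31 rose at ZT15 (0.285%) and 28 fell (0.257%). Of the genes with a symbol, the clock genes vri, tim and per rose most by size, and the replication gene Cdc6, the sugar-conjugating enzyme gene Ugt35B1 and the nuclear receptor gene Hr38 fell most. All 59 moved in 1 direction in all 3 pairs, which a test on the spread among pairs favours. Of the 59, 33 reached 2-fold, 22 of them higher at night. Read by gene, 52 genes passed on their brightest probe set (0.611% of 8516 genes), and of these 19 with a symbol rose, 10 with a symbol fell and 23 carry only a CG number. Of the 59, 3 are on the table only through the arrays of 1 time, since all arrays of the other time lay under the table's limit of 4.00: dy through its night arrays, and CG15196 and CG2961 through their day arrays. After the arrays were quantile normalized again 56 passed, 35 higher and 21 lower. Without the control pair no probe set passed (lowest adjusted p 0.128, limma), although 780 had an unadjusted p under 0.05. Without the intensity trend 25 passed, and 15 of the named genes lost the call (adjusted p 0.0593 to 0.114): cry, Pdp1, Slob, Myo28B1, Vajk2, MsrA, gl, Cyp18a1, Hil, Nt5a, mdy, Ugt35A1, Ugt49C1, Cyp4p1 and inaC. Without the over-expression-labelled pair 134 passed, 58 of the 59 among them, and without the RNAi-labelled pair 32 passed, 21 of the 59 among them.

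**Figure D1:**
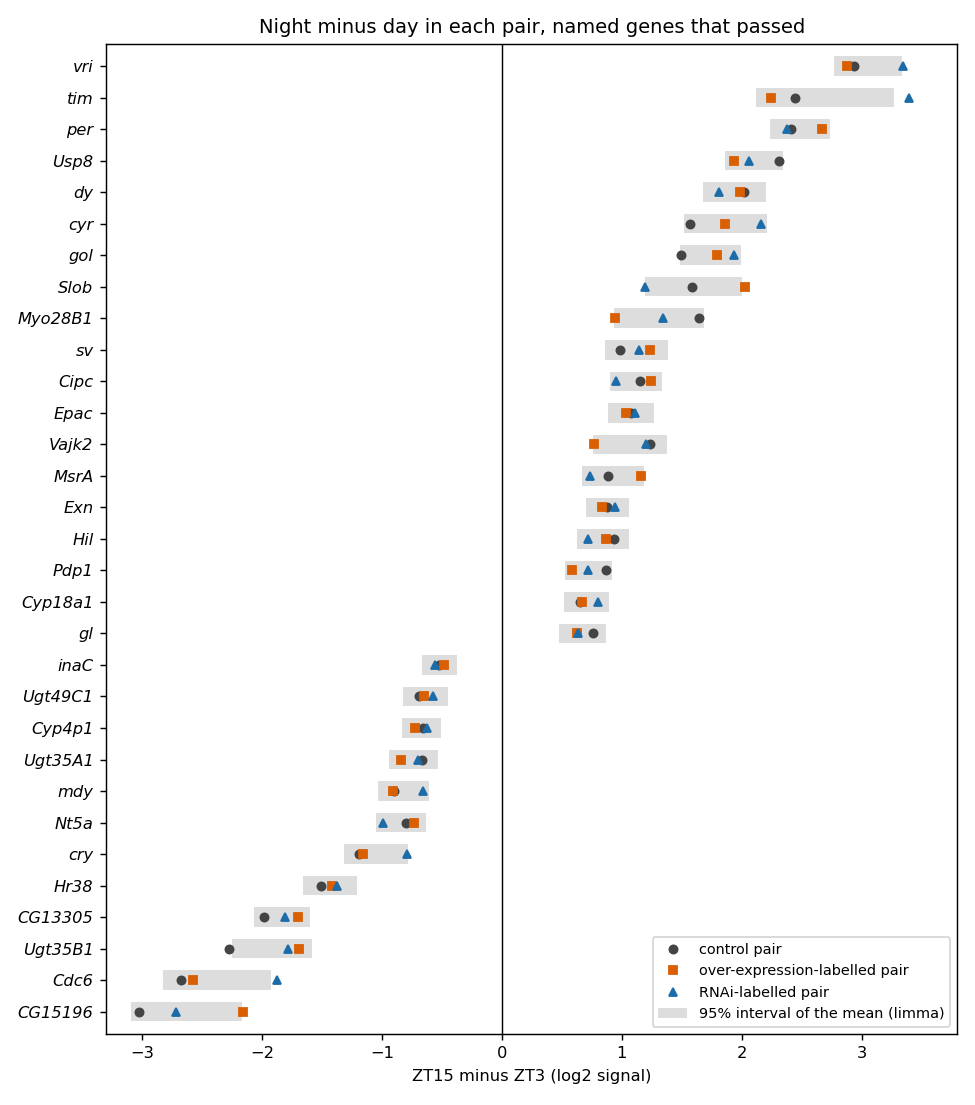
ZT15 minus ZT3 in log2 signal (x axis) for 31 named genes that passed (y axis), with 1 symbol for each of the 3 pairs and a grey bar for the 95% interval of the mean from limma. The 3 symbols of each gene lie on 1 side of 0, from vri at 3.05 to CG15196 at -2.63, whose night arrays all lay under the table's limit of 4.00.

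A count that needs no model varied with the fold limit, with 221 probe sets at 1.3-fold and 26 at 2-fold. On 91 probe sets (0.835%) the 2 times lay 1.5-fold or more apart in 1 direction in all 3 pairs, 47 higher (0.431%) and 44 lower (0.404%) at ZT15. Of the 59 that passed the test, 57 were among them. The night and day arrays did not overlap at all, over treatments, for 43 of the 59. Both counts among the 59 were favoured by their choice on these same arrays. By brightest probe set, 8.38% of all genes had such non-overlapping arrays.

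The gene per, which encodes the PERIOD repressor, had log2 signals of 5.24, 5.68 and 5.74 at ZT3 in control, over-expression-labelled and RNAi-labelled heads and of 7.66, 8.35 and 8.12 at ZT15. All night arrays were above all day arrays, and the 3 pair differences of 2.41, 2.67 and 2.38 lay close together. The mean rise was 2.49 (SE 0.10, n = 3 pairs, adjusted p from limma 0.00574), which is 5.60-fold. For tim, which encodes its partner TIMELESS, the day signals were 9.67, 10.03 and 8.80 in the same order and the night signals 12.11, 12.27 and 12.20. The night arrays were nearly level, and the spread came from the day arrays, where the RNAi-labelled one was lowest. The rise of tim was 2.69 (SE 0.23, adjusted p 0.0279), or 6.47-fold, and a second, dimmer probe set gave 2.41 (adjusted p 0.017). Without the control pair neither gene passed (adjusted p 0.128 for per and 0.328 for tim), with rises of 2.52 and 2.82.

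The 2 activator genes of the loop gave no call. Clk, which encodes CLOCK, had day signals of 8.12, 8.09 and 7.16 and night signals of 5.82, 5.63 and 5.997. Night and day arrays did not overlap, but the control and over-expression-labelled pairs differed by -2.30 and -2.46 while the RNAi-labelled pair differed by -1.16. With that spread the mean difference of -1.98 (SE 0.26) missed the threshold (adjusted p 0.0703). It passed without the over-expression-labelled pair (-1.73, adjusted p 0.0278) and without the RNAi-labelled pair (-2.38, adjusted p 0.0158), and it missed without the control pair (-1.81, adjusted p 0.529). It also passed when only probe sets above the 40th percentile of signal were tested (adjusted p 0.0427). For cyc, the partner of Clk, the difference was -0.15 (SE 0.08, adjusted p 0.462), and its arrays lay between 7.36 and 7.88.

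The light receptor gene cry fell at night. Its signals were 8.70, 8.56 and 9.09 by day and 7.51, 7.41 and 8.30 by night, a mean difference of -1.05 (SE 0.11, adjusted p 0.0393). The highest night array stayed below the lowest day array. The RNAi-labelled pair had the highest level at both times. The call was lost without the control pair (adjusted p 0.43) and without the intensity trend (adjusted p 0.0627). Of the 5 measured genes of the core loop, 2 rose and 1 fell.

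In the second loop vri gave the largest change of the genes that passed. Its day signals were 7.42, 7.39 and 7.10 and its night signals 10.36, 10.27 and 10.44, and the spread within either set was small beside the rise of 3.05 (SE 0.11, adjusted p 0.00574, 8.30-fold). Pdp1 moved less, from 10.57, 10.51 and 10.71 to 11.44, 11.10 and 11.43. Its night arrays were all above its day arrays, and it rose by 0.72 (SE 0.08, adjusted p 0.0428). The call of Pdp1 was lost without the RNAi-labelled pair (0.73, adjusted p 0.126) and without the control pair (0.65, adjusted p 0.404). That call was also lost without the intensity trend (adjusted p 0.081). The third gene, cwo, which encodes a repressor that acts on CLOCK targets, was higher at night in each pair, by 0.57, 1.03 and 0.29, and missed the threshold (0.63, SE 0.15, adjusted p 0.198). Its day and night arrays overlapped, since the over-expression-labelled night array at 9.56 lay below the control day array at 9.62.

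The gene named in the treatments, cbt, had pair differences of 0.52, 0.92 and 0.06 and no call (0.50, SE 0.16, adjusted p 0.301). Treatment separated its levels more than time did, with the RNAi-labelled day array above every control array.

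**Figure D2:**
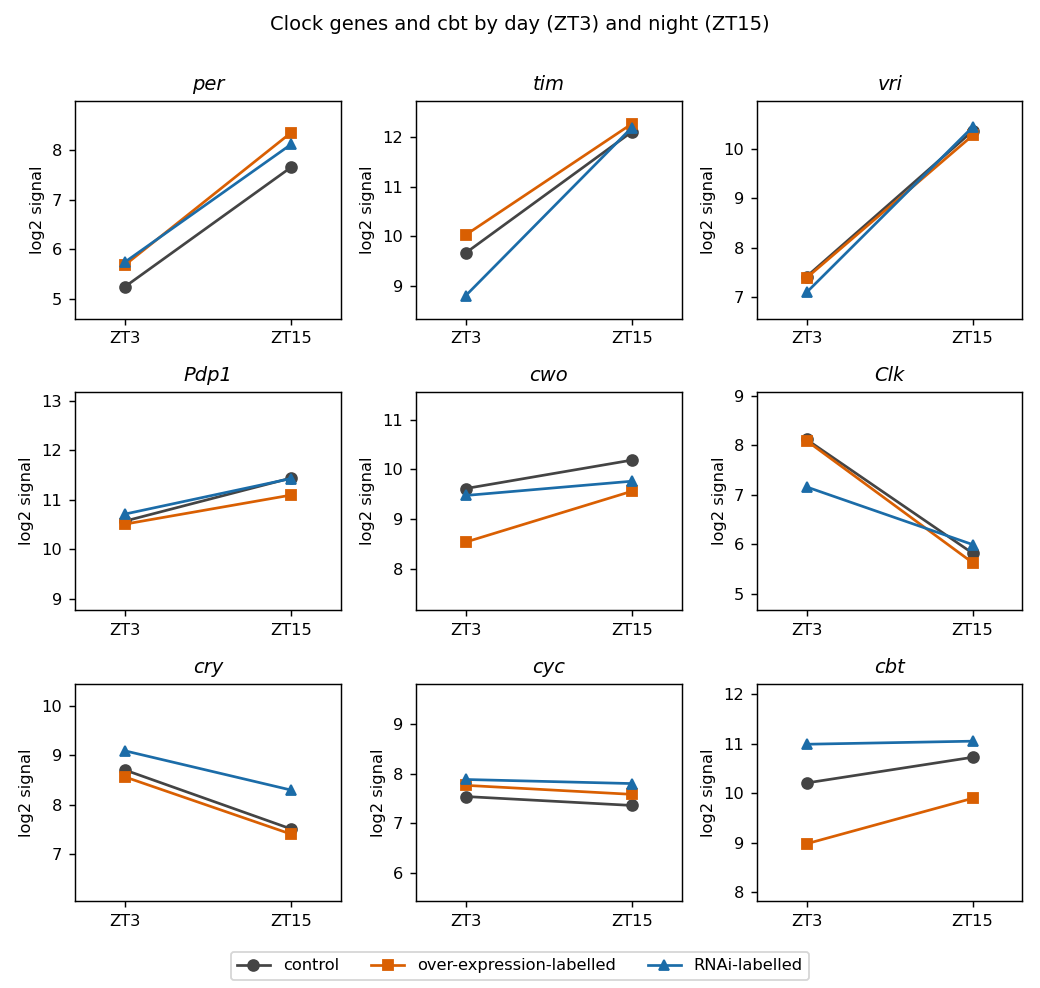
Log2 signal (y axis, each panel spanning a range of the same size) of the clock genes and cbt at ZT3 and ZT15 (x axis), with 1 line for each treatment joining its day and night array. The lines of per, tim, vri and Pdp1 all go up, those of Clk and cry all go down, and the lines of cyc are nearly flat.

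Outside the loops, Usp8, Cipc, Slob and Epac were 4 of the genes that rose. Whether they act in the clock or in neuronal excitability here was not tested. Usp8 encodes a deubiquitinating enzyme that acts on CLOCK in flies. Its signals went from 7.91, 7.96 and 7.84 to 10.22, 9.90 and 9.90, a rise of 2.10 (SE 0.10, adjusted p 0.00771). The day arrays were almost equal and no treatment stood apart. It was the only 1 of 8 measured clock kinases and turnover genes that passed, and dco (doubletime), the kinase that phosphorylates PERIOD, had a difference of -0.34 (adjusted p 0.326). Cipc, named after a mammalian CLOCK-interacting protein, had 8.84, 7.97 and 8.59 by day and 9.99, 9.21 and 9.54 by night. Its over-expression-labelled arrays were the lowest at each time, and within each pair the night array was about 1 unit higher (1.12, SE 0.09, adjusted p 0.0204). Slob, whose protein binds and modulates the Slowpoke potassium channel, went from 9.06, 8.68 and 9.85 to 10.64, 10.71 and 11.04. It rose by 1.60 (SE 0.16, adjusted p 0.0392), least in the RNAi-labelled pair, where the day signal was highest. A dimmer probe set of Slob gave 0.43 (adjusted p 0.2) and the mean of its probe sets 1.01, and the call was lost without the intensity trend (adjusted p 0.0627). Epac encodes an exchange factor that cyclic AMP activates. Its pair differences were 1.08, 1.04 and 1.11 (mean 1.08, SE 0.08, adjusted p 0.0168). None of these 4 passed without the control pair, and Epac did not pass without the RNAi-labelled pair (adjusted p 0.0636). Slob was the only 1 of 22 measured genes of clock output, sleep and excitability that passed. Sh, a potassium channel gene of the same list, had 0.65 (adjusted p 0.117) on its brightest of 4 probe sets, and the others gave 0.57, -0.04 and -0.59.

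The other named genes that rose were of mixed function. Both dy (dusky) and cyr encode zona pellucida domain proteins, a class that ties cells to the cuticle above them. Signals of dy were 3.38, 3.34 and 3.62 by day and 5.41, 5.33 and 5.43 by night. Since every probe set on the table reached 4.00 on at least 1 array, dy is on it only through its night arrays. A probe set so admitted had to be higher at night, and its measured difference (1.94, SE 0.11, adjusted p 0.0114) is taken against a day signal near the low end of the table. Those of cyr were 4.98, 4.54 and 4.84 by day and 6.55, 6.40 and 7.01 by night, and it rose by 1.87 (SE 0.14, adjusted p 0.0193), most in the RNAi-labelled pair. The list of zona pellucida domain genes, put together after values were seen, has 8 measured members, and the other 6 lay between -0.21 and 0.22 with no call.

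Gene gol (goliath), which encodes a RING-finger ubiquitin ligase of endosomes, went from 9.07, 8.82 and 9.27 to 10.57, 10.61 and 11.21. It rose by 1.74 (SE 0.10, adjusted p 0.014), while a dimmer probe set of gol gave 0.37 (adjusted p 0.231). The Pax2-type transcription factor gene sv (shaven), which acts in cone and bristle cells, rose by 1.12 (SE 0.10) and gl (glass), the zinc-finger factor of photoreceptor development, by 0.68 (SE 0.08). Myo28B1, an unconventional myosin gene, rose by 1.31 (SE 0.15) with pair differences of 1.65, 0.94 and 1.34. Vajk2, 1 of a small family of cuticle-related genes, rose by 1.07 (SE 0.12) on its brightest probe set. Its other probe set gave 0.17 (adjusted p 0.588), and with the mean of the probe sets the call was lost for Vajk2 (0.62, adjusted p 0.102) and for Cyp18a1 (0.61, adjusted p 0.0753). MsrA, which encodes an enzyme that repairs oxidised methionine, rose by 0.93 (SE 0.10), Exn by 0.88 (SE 0.07) and Cyp18a1, whose enzyme inactivates the moulting hormone ecdysone, by 0.71 (SE 0.08). Hil, picked outside the naming rule after its values were seen, rose by 0.84 (SE 0.09). Each of these genes was higher at night in 3 of 3 pairs, which the test and the naming rule favoured. All but gol among them lost the call without the RNAi-labelled pair (adjusted p from 0.089 for Exn to 0.148 for Myo28B1 and Vajk2), and all lost it without the control pair.

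Among the genes with a symbol that fell, Cdc6 moved most. It encodes a protein that licenses replication origins. Its signals were 6.58, 7.19 and 6.55 by day and 3.91, 4.62 and 4.67 by night, a mean difference of -2.37 (SE 0.18, adjusted p 0.0194). All night arrays lay well below all day arrays. The other 13 measured cell cycle genes, a list put together after values were seen, did not pass, and 13 of the 14 were highest on the over-expression-labelled ZT3 array. The difference of Cdc6 was -2.27 without that pair. Cks30A, a cyclin-dependent kinase subunit gene of the female germline, was 1.5-fold or more lower in each pair and missed the threshold (-1.71, SE 0.29, adjusted p 0.111).

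Hr38 encodes the fly member of the NR4A nuclear receptors, whose transcript is induced by neuronal activity. It fell from 6.79, 6.36 and 6.90 to 5.28, 4.95 and 5.52. The 3 pair differences, -1.51, -1.41 and -1.38, were close (-1.43, SE 0.09, adjusted p 0.0153), and the over-expression-labelled pair was lowest at each time. Of 12 measured activity-regulated and light-responsive genes it was the only 1 that passed, but 9 were lower at night in all 3 pairs, where 22.9% of all genes were, and the median of the list was -0.21 against -0.02 for all genes. Jra, the fly Jun, had -0.27 (adjusted p 0.271), sr (stripe), the fly Egr factor, had -0.28 (adjusted p 0.356) and Atf3 had -0.15 (adjusted p 0.489). Arc1, which encodes a capsid-forming synaptic protein, had -0.28 (adjusted p 0.283) on its brightest probe set, and a dimmer one passed at -0.70 (adjusted p 0.046).

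Ugt35B1, which encodes a UDP-glycosyltransferase that joins sugars to small lipophilic molecules, fell from 9.86, 10.33 and 9.89 to 7.58, 8.64 and 8.11. The control pair differed most, by -2.28, and the mean was -1.92 (SE 0.13, adjusted p 0.0168). Its neighbour Ugt35A1 fell by 0.73 on the log2 scale (SE 0.08, adjusted p 0.044) and Ugt49C1 by 0.64 (SE 0.07, adjusted p 0.0465). Of 19 measured family members 3 fell (0.257% of all probe sets fell), none rose, and 9 were lower in all 3 pairs, against 22.9% of all genes. Ugt35A1 and Ugt49C1 lost the call without the RNAi-labelled pair (adjusted p 0.13 for each), and after the arrays were quantile normalized again (adjusted p 0.0546 for each), and Ugt49C1 also without the over-expression-labelled pair (adjusted p 0.0509).

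The glutathione transferases, which join glutathione to reactive compounds, gave no call among 30 measured genes. Of these 15 were lower at night in all 3 pairs and 1 was higher, against 22.9% and 17.3% of all genes, and 12 had an unadjusted p under 0.05, against 14.8% of all genes. Their median was -0.22. GstE1, GstE2 and GstE9 had differences of -0.57, -0.51 and -0.43, each with an adjusted p of 0.0782. Among 71 measured cytochrome P450 genes, Cyp18a1 rose and Cyp4p1 fell (-0.67, SE 0.06, adjusted p 0.0364), where 0.611% of all genes passed. In all 3 pairs 19 of the 71 were lower at night and 6 higher, against 22.9% and 17.3% of all genes. An unadjusted p under 0.05 was found for 17, against 14.8% of all genes. The P450 family as a whole had a median of -0.07.

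**Figure D3:**
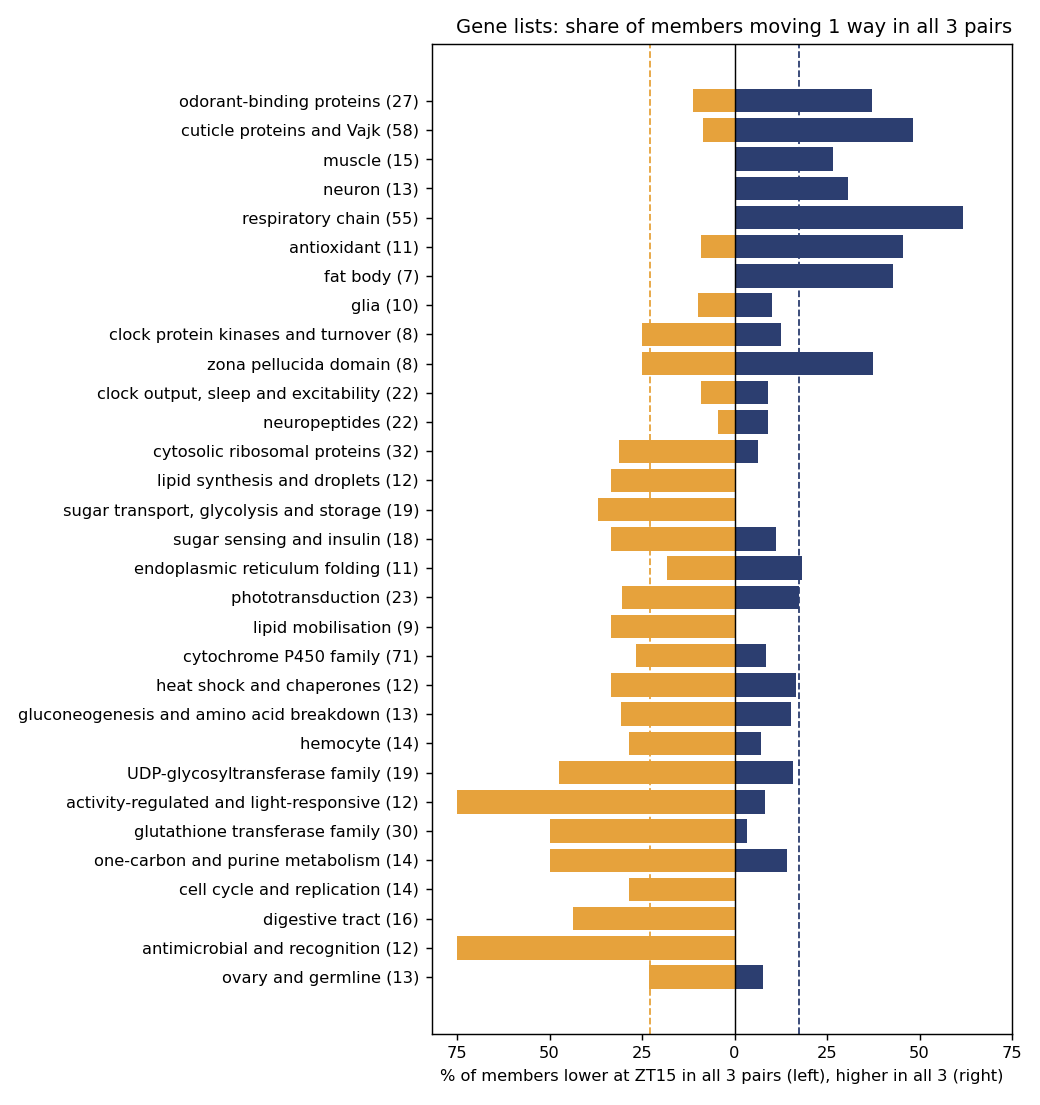
Share of the measured members of each list (percent, x axis) that were lower at ZT15 in all 3 pairs (left, orange) or higher in all 3 pairs (right, blue), for lists with 7 or more measured members, whose number stands in brackets. Dashed lines mark the shares among all genes, 22.9% lower and 17.3% higher.

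Eye and lipid genes added a few calls. inaC, which encodes the eye protein kinase C that shuts off the light response, fell from 11.63, 11.39 and 12.17 to 11.10, 10.91 and 11.62. The arrays of the 2 times overlapped across treatments, and the fall within each pair was nearly the same (-0.52, -0.49 and -0.55; mean -0.52, SE 0.06, adjusted p 0.044). Of the 23 measured phototransduction genes it was the only 1 that passed on its brightest probe set. rdgC, which encodes a rhodopsin phosphatase, had 0.06 (adjusted p 0.785) on its brightest probe set and passed in the other direction on a dimmer one (0.96, adjusted p 0.034). inaD, the scaffold that holds inaC, had -0.71 (adjusted p 0.131), with -1.04 in the control pair and -0.40 in the over-expression-labelled pair. pinta, which encodes a retinoid-binding protein, had -0.54 (adjusted p 0.0782).

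The gene mdy (midway), which encodes the enzyme of the last step of triglyceride synthesis, fell by 0.82 on the log2 scale (SE 0.08, adjusted p 0.0395). Its signals went from 9.59, 9.80 and 8.79 to 8.69, 8.89 and 8.13, with the RNAi-labelled arrays lowest at each time and an overlap between its day array and the night arrays of the others. It was the only 1 of 12 measured lipid synthesis genes that passed, and ACC, which encodes the enzyme that commits acetyl-CoA to fatty acid synthesis, had -0.48 (adjusted p 0.131). FarO, a fatty acyl-CoA reductase gene of oenocytes, was 1.5-fold or more lower in each pair and missed the threshold (-1.87, SE 0.23, adjusted p 0.0557). Nt5a completed the named genes that fell (-0.84, SE 0.08, adjusted p 0.0391). Without the RNAi-labelled pair inaC, mdy, Nt5a and Cyp4p1 lost their calls (adjusted p 0.145, 0.0686, 0.11 and 0.113), and inaC also when the arrays were centred on ribosomal protein genes (adjusted p 0.056).

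Sugar and storage pathways gave no call. Among 18 sugar sensing and insulin genes and 19 genes of sugar transport, glycolysis and storage, 6 and 7 were lower in all 3 pairs and 3 and 5 had an unadjusted p under 0.05, with medians of -0.06 for each list. Among all genes these shares were 22.9% and 14.8%, so that the 3 of 18 lie near the share of all genes. Lst, which encodes the limostatin hormone of fasting, had -0.55 (adjusted p 0.085). The 14 genes of one-carbon and purine metabolism had a median of -0.27, 7 lower in all 3 pairs (22.9% of all genes) and 8 with an unadjusted p under 0.05 (14.8% of all genes). Adsl, an enzyme gene of purine synthesis, had -0.75 (adjusted p 0.086), and Nmdmc, a mitochondrial folate enzyme gene, had -1.42, -1.19 and -0.58 in the pairs (adjusted p 0.0991). The median of this list was -0.46 in the control pair, -0.33 in the over-expression-labelled pair and -0.04 in the RNAi-labelled pair.

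The respiratory chain of mitochondria passes electrons to oxygen and drives ATP synthesis. Of 55 measured genes of the respiratory chain, 34 were higher at ZT15 in all 3 pairs, where 17.3% of all genes were, and none was lower in all 3. The median was 0.09, no gene passed and 5 had an unadjusted p under 0.05, which is below the 14.8% of all genes. SdhD, a complex II subunit gene, had 0.23 (adjusted p 0.252), and ATPsynbeta, the catalytic subunit of ATP synthase, had 0.19 (adjusted p 0.358). The direction of the list was unchanged when the arrays were quantile normalized again (median 0.11, with 0.01 for all genes) or centred on ribosomal protein genes (0.10, with -0.01 for all genes). Of all genes 22.6% were higher and 17.0% lower in all 3 pairs under the first, and 17.8% and 20.9% under the second.

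Odorant-binding proteins carry odorants and other small molecules in the fluid around sensory neurons. Of 27 measured genes 10 were higher in all 3 pairs and 3 lower, against 17.3% and 22.9% of all genes, 11 had an unadjusted p under 0.05, against 14.8%, and none passed. Obp99a had day signals of 9.43, 10.73 and 8.83 and night signals of 11.31, 12.49 and 9.76. Its pairs were 1.88, 1.76 and 0.92 (mean 1.52, SE 0.20, adjusted p 0.0645). It passed without the over-expression-labelled pair (adjusted p 0.0307) or without the RNAi-labelled pair (adjusted p 0.0153).

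Immune genes differed most in the RNAi-labelled pair. No antimicrobial or recognition gene passed among 12 measured, although 9 were lower at night in all 3 pairs, against 22.9% of all genes. An unadjusted p under 0.05 was found for 6, against 14.8% of all genes. The median of the list was -0.55, -0.52 and -1.57 in the control, over-expression-labelled and RNAi-labelled pairs. Of the 12 genes 11 were highest on the over-expression-labelled ZT3 array. The median difference of the list was -0.84 with all arrays and -0.93 without the over-expression-labelled pair. DptB, a diptericin gene, had signals of 9.30 and 8.18 in control, 12.66 and 11.98 in over-expression-labelled and 11.59 and 6.60 in RNAi-labelled heads, day first. Its mean difference of -2.26 (SE 0.85, adjusted p 0.342) rests on the RNAi-labelled pair at -4.99, without which it was -0.90. Mtk (metchnikowin) had -0.56, -0.60 and -5.25 in the pairs, and Drs (drosomycin) 0.07, 0.10 and -4.39. In these genes the RNAi-labelled ZT15 array held the lowest signal and the over-expression-labelled arrays the highest. Def and GNBP3 were higher at night in the RNAi-labelled pair, by 0.90 and 0.09. DptB was named by rule, and Mtk and Drs, like the other members of lists named here without a call, were chosen after their values were seen.

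Digestive tract and germline genes differed most in the over-expression-labelled pair. The 16 digestive tract markers had mean signals of 5.51 and 4.97 in control, 7.86 and 5.39 in over-expression-labelled and 5.10 and 5.09 in RNAi-labelled heads, day first. All 16 were highest on the over-expression-labelled ZT3 array, none passed, and 2 had an unadjusted p under 0.05, against 14.8% of all genes. The median difference of the list was -0.66 with all arrays and -0.14 without that pair. Jon65Aiv, a gut serine protease gene, was 1.5-fold or more lower at night in each pair, with -1.996, -5.20 and -1.33 (-2.84, SE 0.74; without the over-expression-labelled pair -1.66, adjusted p 0.0122). betaTry, alphaTry and Jon65Aiii, which also encode gut proteases, had -6.22, -5.58 and -5.12 in the over-expression-labelled pair. They had -1.63, -1.16 and -1.05 in the control pair and -0.37, -0.19 and 0.03 in the RNAi-labelled pair.

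The 13 ovary and germline genes, listed after values were seen, had mean signals of 5.17, 4.40, 6.99, 4.67, 4.33 and 4.51 in the same order of arrays. None passed (2 at an unadjusted p under 0.05, against 14.8% of all genes), and the median was -1.17, and -0.21 without the over-expression-labelled pair. osk (oskar), which sets up the pole of the egg, had 5.25 and 2.65 in control, 9.39 and 3.59 in over-expression-labelled and 2.67 and 2.75 in RNAi-labelled heads. It was higher by day than by night in control and over-expression-labelled heads and level in RNAi-labelled heads. fln (flightin), a flight muscle gene, had 8.75 on the over-expression-labelled ZT3 array and 3.81 to 4.15 on the others. Of the 15 measured muscle genes 5 were highest on that array, with Act88F (9.63) and Act79B (11.10) beside fln. The 15 had a median of 0.12 and no call, also none at an unadjusted p under 0.05. Cyp4g1, the oenocyte P450 of cuticular hydrocarbons, had 12.17 on that array and 4.63 to 7.51 on the others. The part of gut, ovary or other tissue in these differences was not tested.

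**Figure D4:**
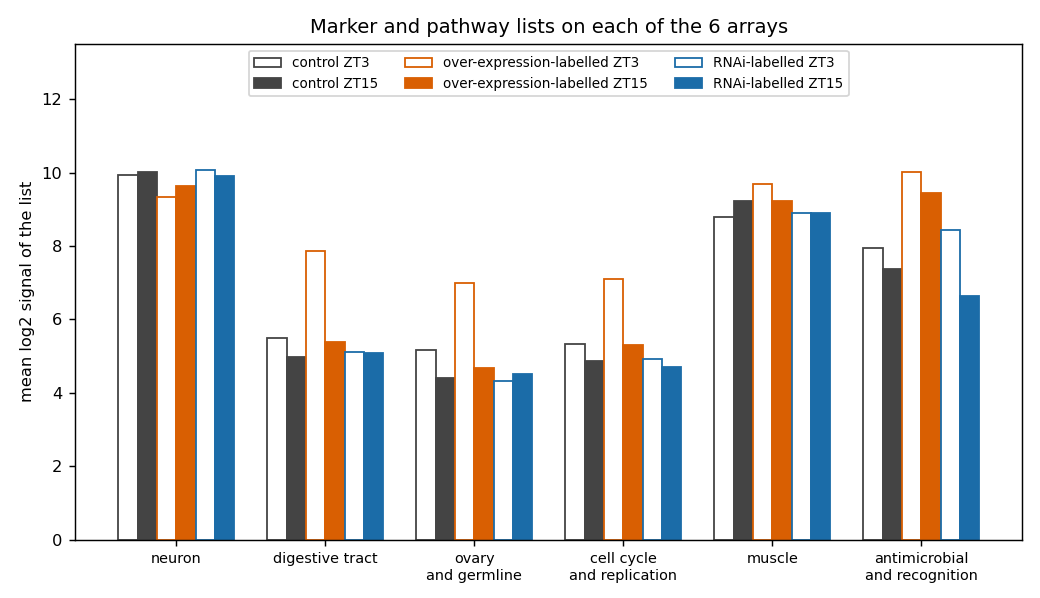
Mean log2 signal (y axis) of 6 lists (x axis) on each array, with open bars for ZT3 and filled bars for ZT15 in each treatment. The over-expression-labelled ZT3 bar is the tallest of its list for digestive tract, ovary and germline, cell cycle, muscle and antimicrobial genes, and the shortest for neuron. The RNAi-labelled ZT15 bar is the shortest for antimicrobial and cell cycle genes.

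Over all probe sets the 3 pairs differed from each other, while those that passed were chosen by a test whose error is the spread among pairs, so that similar sizes in the 3 pairs were set by the choice. As a description, the median absolute difference of the 59 probe sets was 1.08 in the control pair, 1.07 in the over-expression-labelled pair and 0.95 in the RNAi-labelled pair. The control pair had the largest size of the 3 for 29 of them, and each of the other pairs for 15. Over all probe sets the SD of the differences was 0.31, 0.45 and 0.31, and the correlation across probe sets was 0.460 between the control and over-expression-labelled pairs, 0.368 between control and RNAi-labelled and 0.205 between over-expression-labelled and RNAi-labelled. These are descriptions over probe sets, which are not independent, and the pairs share no array. In single pairs 50 probe sets were 2-fold or more higher and 78 lower at night in control, 86 and 196 in over-expression-labelled and 60 and 57 in RNAi-labelled heads.

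Few genes went opposite ways. On 40 probe sets 2 pairs differed 1.5-fold or more in opposite directions, and on 1 at 2-fold. That 1 was Scp1, which encodes a sarcoplasmic calcium-binding protein, with 9.50 and 11.12 in control, 11.88 and 9.92 in over-expression-labelled and 8.73 and 10.31 in RNAi-labelled heads. It was higher at night in control and RNAi-labelled heads and lower in over-expression-labelled heads. Mpcp1, which encodes a mitochondrial phosphate carrier, was the only gene that differed 2-fold in control heads (1.08) and under 1.2-fold in both others (0.19 and -0.10).

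**Figure D5:**
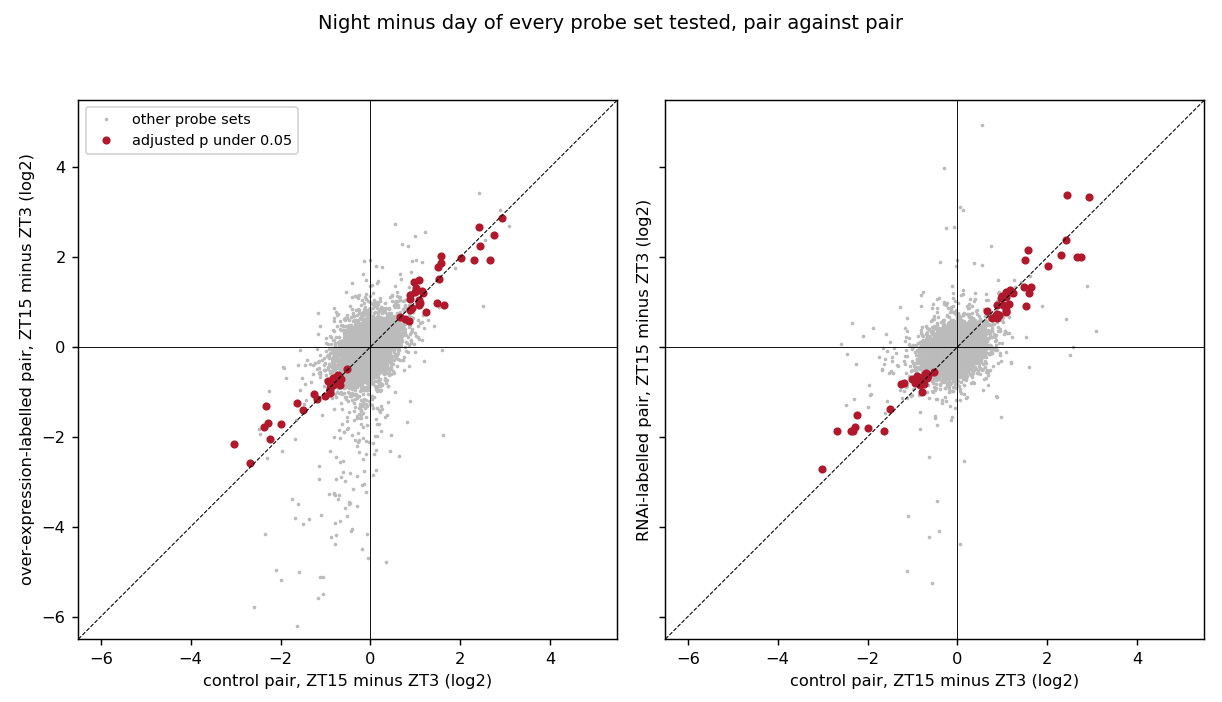
ZT15 minus ZT3 (log2) of each of the 10893 probe sets in the control pair (x axis) against the over-expression-labelled pair (left, y axis) and the RNAi-labelled pair (right, y axis), with the 59 that passed in red and the dashed line at equal differences. The red points lie along the line in each panel, and the grey points that reach far below it on the left belong to genes high on the over-expression-labelled ZT3 array.

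Some of the genes were neighbours in the genome. Of 79 placed genes with differences of 1.5-fold or more in all 3 pairs, 8 pairs had no more than 2 genes between them in the gene order of the RefSeq table, and 7 of the 8 moved in 1 direction. The matching shares among all genes were not computed, so these counts describe the 79 genes and do not show clustering. Slob and Myo28B1 on chromosome 2L adjoin and both rose. Ugt35B1 and Ugt35A1 on 3R adjoin and both fell. Cdc6 on 3L fell together with CG13305, 1 gene away (-1.83, adjusted p 0.00962). Vajk2 rose beside Vajk3 (1.17, adjusted p 0.0703), and Clk lay 1 gene from CG32369 (-0.86, adjusted p 0.0836), whose next neighbour is Pdp1, the pair that went opposite ways. Gene pairs that share a stretch of sequence can share probes, which was not checked here.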

How the data were processed

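RNA from pools of 30 heads was measured on Affymetrix Drosophila 2.0 arrays, 6 in all, per the labels' protocols. The authors deposited signals on a log2 scale, as the range and near-equal medians of the values show. The submitters' processing notes name Affymetrix Expression Console; its version and settings are not given in the sources used here. The values were used as they stood. Every probe set on the table reached 4.00 on at least 1 array. The number of arrays limits the precision.

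In the platform annotation 9286 probe sets had 1 gene (9260 matched by gene ID to RefSeq's table of Release 6 plus ISO1 MT), 276 several and 1331 none, beside 63 control probe sets. These gave 8516 genes, 563 with more than 1 probe set.

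The test was limma 3.58.1 in R 4.3.3: lmFit with treatment and time on all 6 arrays, eBayes with an intensity trend, two-sided, Benjamini-Hochberg over 10893 probe sets, threshold 0.05. To 2 residual degrees of freedom the prior contributed 3.29, and the median SE was 0.0989. In 20 simulated tables of 10893 probe sets, 200 were changed at each size, in independent normal noise drawn from the fitted prior. Of the changes set at 0.5 log2 units 40.3% were called, 91.6% at 1 and 99.1% at 2, and 4.97% of calls were false. More changes were set than the 59 calls found here, and no array that stands apart was simulated. These shares need not hold for the 6 arrays. Arrays are paired by treatment, which comes from the labels and is the additive term; a replicate number stands for the treatment (1 control, 2 over-expression-labelled, 3 RNAi-labelled).

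Named were cbt and the clock loops; up to 15 genes with a symbol per direction that passed, by size, filled with genes 1.5-fold apart in all 3 pairs; up to 4 passing members per list; genes changed 2-fold in control only; and the 8 with the widest range over pairs. The rest were chosen after their values were seen. The members and the 33 gene lists were chosen with earlier results of these data known, and 4 lists were added after values were seen. Of the 37 lists 14 had a member that passed and 23 had none. Alternatives were a filter on dim probe sets, the trend, prior, treatment term, scaling, probe sets per gene, fold limits and leaving out each pair.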

Additional observations from a re-analysis of the deposited data

Results flagged for a closer look

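For 10 named genes the pair differences went opposite ways, by a range between the highest and the lowest pair difference that is given in log2 units. Each pair is 1 array against 1 array, so the difference between treatments was not tested. Largest in the over-expression-labelled pair were osk (range 5.87), CG43134 (5.31), CG14292 (5.22), Jon65Aiii (5.15), fln (5.12) and dhd (4.69), a thioredoxin gene of the germline. The 6 genes were lower at night there by -4.15 (dhd) to -5.80 (osk) and had 0.03 to 0.54 in the RNAi-labelled pair. Scp1 (range 3.58) went down in the over-expression-labelled pair and up in the others. In the RNAi-labelled pair Drs (range 4.49) was lower at night by -4.39 and Cyp6a17 (range 4.27), a P450 gene, was higher by 3.98, with -0.29 and -0.13 in the others. Mpcp1 had a range of 1.18.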

How the results depend on the processing

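Of 59 probe sets that passed (31 higher, 28 lower at night), 25 passed without the intensity trend (16 higher, 9 lower). Without the treatment term, that is with no replicate block, 4 passed (4 higher, 0 lower), namely vri, tim on its dimmer probe set, Usp8 and dy, and 356 had an unadjusted p under 0.05 by limma. Leaving out each pair gave 0 to 134 (0 to 59 higher, 0 to 75 lower), with 0 without replicate 1, where 780 had an unadjusted p under 0.05. With 1 array of a pair left out the other adds nothing, and 1 residual degree of freedom remained. The count of probe sets 1.5-fold apart in all 3 pairs, 91, became 221 at 1.3-fold, 26 at 2-fold, 56 above the 40th percentile of signal and 145 to 221 with a pair left out. Directions turned for 4 genes without a call when a pair was left out. Their ranges were -2.37 to 0.186 for fln (0.186 without replicate 2), -0.195 to 1.60 for Scp1 (-0.195 without replicate 1, -0.171 without replicate 3), -2.16 to 0.086 for Drs (0.086 without replicate 3) and -0.208 to 1.93 for Cyp6a17 (-0.208 without replicate 3). The cause of these shifts was not tested. Over the named genes and their alternatives 786 values kept direction and side of the threshold, 97 lost the call, 27 gained it and 5 turned. No rhythm can be read from 2 times.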

Other observations

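Genes of the cuticle leaned toward night. Of 58 measured cuticle protein and Vajk genes, a list put together after values were seen, 28 were higher at ZT15 in all 3 pairs and 5 lower, against 17.3% and 22.9% of all genes. The median was 0.15, and 22 had an unadjusted p under 0.05, against 14.8% of all genes. Vajk2 was the 1 that passed, where 0.611% of all genes did. Cpr62Bc had pair differences of 0.97, 1.38 and 0.61 (adjusted p 0.103), Cpr49Ag 0.86, 1.33 and 0.60 (adjusted p 0.103) and Cpr49Ae 0.38, 0.45 and 0.48 (adjusted p 0.0782). Against that direction, Cpr72Ec had -1.93, -0.46 and -1.04 (mean -1.15, adjusted p 0.198), close in size to the largest positive difference of the list, Vajk3 at 1.17, and Cpr67B had -0.51, -0.36 and -0.89 (adjusted p 0.157). The list median was 0.19 after quantile normalization and 0.16 after centring on ribosomal protein genes.

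Hemocyte genes gave no call among 14, and 4 had an unadjusted p under 0.05, against 14.8% of all genes. In all 3 pairs 1 was higher and 4 were lower at night, against 17.3% and 22.9% of all genes. Hml, which encodes hemolectin, had -0.53, -0.70 and -0.27 (adjusted p 0.168), srp, the GATA factor of blood cells, -0.47, -0.58 and -0.20 (adjusted p 0.198), and lz, the Runx factor of crystal cells, 0.46, 0.24 and 0.26 (adjusted p 0.276). Among 22 neuropeptide genes none passed, and 1 had an unadjusted p under 0.05, against 14.8% of all genes. The median of these genes, -0.015, turned to 0.013 after quantile normalization. Of 5 genes listed for male heads or sex determination none passed, and 1 had an unadjusted p under 0.05, against 14.8% of all genes. In all 3 pairs 1 was higher and 1 lower at night, against 17.3% and 22.9% of all genes. These were Cyp4d21, with 0.55, 2.74 and 1.83 (adjusted p 0.198), and tra, with -0.15, -0.05 and -0.11 (adjusted p 0.559).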
